A study of Rattus norvegicus with 67 samples.

Results

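Obese and healthy males of the control lineage were compared for histone retention in sperm. The 13 animals are the control lineage males that the sample list tags as obese, or as having late puberty and obesity, and those it tags as having no disease and for which window counts were used. They are 13 of the 67 samples of the series. The obese group holds 4 animals, M3, M5, M11 and M15, of which M3 also had late puberty, so the number of calls and the DHRs named by the selection rule are also given without it. The group without disease holds 9 animals, M2, M6, M8, M9, M12, M13, M14, M16 and M18. All were F3 generation outbred Sprague Dawley males aged 1 year, and no animal of this generation was itself exposed. Their F0 great-grandmothers received the vehicle DMSO by injection on gestation days 8 to 14, whereas those of the atrazine lineage received 25 mg/kg of the herbicide atrazine on the same days. Obesity was called by the study from adipocyte area, body mass index and abdominal adiposity. Each library is sperm chromatin of 1 animal, sonicated to remove somatic cells and precipitated with an antibody to histone H3. The labels name a pan H3 antibody, and the study's methods also name one to trimethylated H3. Litters, sequencing lanes and batches are not given, so the p-values measure the spread between animals that may share a litter. A treatment tag names atrazine for the control lineage animals, against their titles and lineage tag, which were followed here. Of the healthy animals, the pathology record has an empty cell for M12 under obesity, the trait compared here, for M18 under testis disease and for M2 under several diseases other than obesity, and the tag of no disease was followed for all of them.

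During the last steps of sperm development most histones are replaced by protamines, small basic proteins that pack the DNA of the sperm head. A minor part of the genome keeps nucleosomes, and histone H3 ChIP-Seq reads the DNA that stays bound to them. Regions that differ between groups of animals are called differential histone retention regions (DHRs). They were counted in windows of 1 kb, with a level in each animal as reads in the window per 1000000 reads of the library (RPM). Each library comes from many sperm, so retention in fewer cells and less retention per cell cannot be told apart. Libraries of sperm DNA without precipitation were not used here, so the number of DNA copies at a region and its histone retention cannot be told apart.

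The libraries differed in depth. The obese animals had 19909382 (M3), 33649463 (M5), 55516757 (M11) and 57145912 (M15) reads, and the animals without disease had 27658385 (M6) to 163344139 (M2). The median tested window held 7 to 21 reads in an obese animal and 10 to 62 in an animal without disease. Expression markers of sperm cannot be checked in ChIP reads, but the reads per window on the X chromosome relative to the autosomes were 0.461 to 0.518 in obese animals and 0.444 to 0.568 in animals without disease, and those on the Y chromosome 0.698 to 0.781 and 0.681 to 0.836, so the groups overlapped in both. Mitochondrial reads, which sperm midpieces and other cells carry, made up 0.00911% to 0.0173% and 0.0138% to 0.0249%. None of 25 library measures (the total, the share of reads on each chromosome and the share in the densest 5% of windows after thinning to the smallest library) differed at an adjusted p below 0.05 in exact permutation tests over the 715 arrangements of the animals. The smallest p was that of the mitochondrial share, with a mean of 0.0134% ± 0.00347 (SD, n = 4) in obese animals and 0.0179% ± 0.00394 (SD, n = 9) in the others (exact permutation test, two-sided, p = 0.0769, adjusted p = 0.993). The densest 5% of windows took 15.1% ± 0.529 (SD, n = 4) of the reads against 14.7% ± 0.481 (SD, n = 9), with an exact permutation p of 0.231. M3, the shallowest library, had the lowest mitochondrial share and the highest share in the densest windows of the 13 animals.

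**Figure D1:**
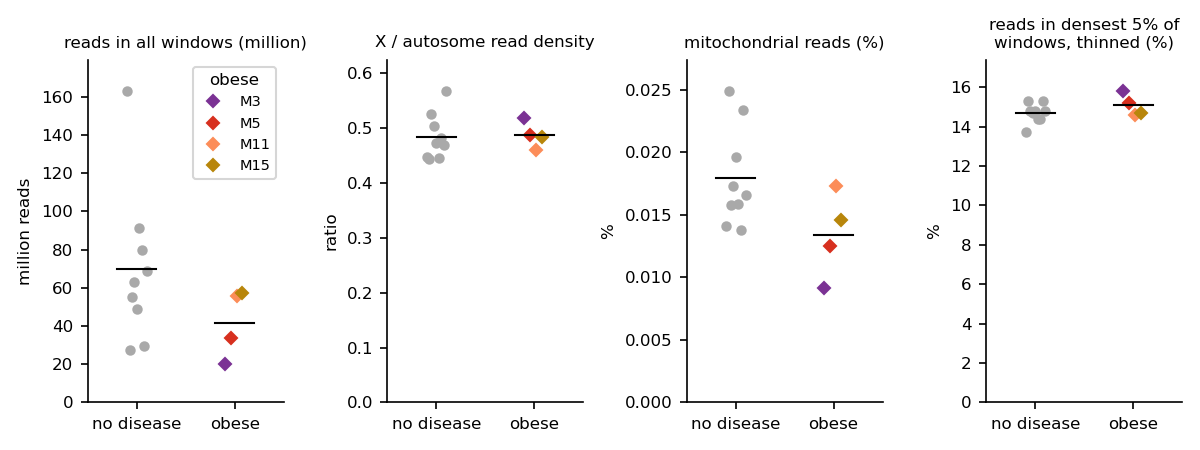
Measures of the 13 control lineage libraries, by group: total reads (axis in units of 1000000), X to autosome read density as a ratio, mitochondrial reads in percent and reads in the densest 5% of windows in percent. Grey points are the 9 animals without disease, coloured diamonds the 4 obese animals, and black lines the group means; the groups overlap in each panel, and M2 and M3 are the ends of the depth range.

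Across the genome, no tested window separated sperm of obese and healthy control lineage males after adjustment for the number of windows. Of 2782040 windows, 2459749 had a mean of at least 10 reads over the 13 animals and were tested with edgeR's quasi-likelihood test. At p below 0.0001, the threshold selected in the study's results, 103 windows were called (0.00419% of those tested), where uniform p-values would give 246. Of these, 38 were higher in obese animals (0.00154%) and 65 lower (0.00264%). At p below 0.05, 1.98% of windows were higher and 2.19% lower. No window had an adjusted p below 0.05, and the smallest adjusted p was 1. DESeq2 called 96 windows at this threshold and edgeR's exact test with tagwise dispersion 472, which is more than 246, and both called 0 after adjustment. The biological coefficient of variation between animals was 0.2057. Without M3, 98 windows were called and again 0 after adjustment. The regions described from here on are therefore those of smallest p among the windows tested, and none of these windows holds after correction for their number. Windows below the read minimum and bins of 10 kb are described further on, and among these a stretch of chromosome 11 passed adjustment, on reads that came mainly from M5 and M3 and without which its bin would not have met the read minimum.

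Extending the 103 windows over neighbours with p below 0.1 gave 103 DHRs, each around 1 called window. Obese animals had fewer reads at 63.1% of them and more at 36.9%, whereas the 95 DHRs called by DESeq2 were 47 lower and 48 higher. Of the DHRs, 62 were 1 kb long and 5 were longer than 4 kb. The DHRs with more reads in obese animals had log2 fold changes of 0.70 to 1.47 (median 1.06), and those with fewer reads had −3.18 to −0.91 (median −1.44). All windows tested had a median of 0 and a 5th to 95th percentile range of −0.50 to 0.44. Because the DHRs were called by this contrast, these sizes are a description. Nearly all of the lower DHRs, unlike the higher ones, met the read minimum only through the healthy animals, as described further on. The mean number of reads per animal at the DHRs was 10.3 to 77.5, with a median of 23.7 against 23.5 for all windows tested. In 68 DHRs, 20 higher and 48 lower, the 4 obese animals did not overlap the 9 others, which was so for 0.361% of all windows, although the calls themselves favour such windows.

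The DHRs lay on all 20 autosomes and on the X chromosome. Chromosome 1 had 12, which is 11.7% of the DHRs on 10.3% of the tested windows, and chromosome 7 had 10 (9.71% on 5.35%). Chromosomes 6, 14 and 16 had 8.74% on 5.56%, 6.8% on 4.27% and 5.83% on 3.35%. Others had less than their share of windows, such as chromosomes 2 (7.77% on 9.85%), 4 (4.85% on 6.9%), 15 (1.94% on 4.15%) and 19 (0.971% on 2.32%). With at most 12 DHRs on a chromosome these shares are imprecise, and differences between chromosomes were not tested. The X chromosome had 3 (2.91% on 2.71%), all with fewer reads in obese animals, as 63.1% of all DHRs had. None was on the Y chromosome or the mitochondrial genome, where only 2133 and 17 windows were tested. Positions are given on the rat genome build Rnor_6.0.

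Among the DHRs with more retention in obese animals, the smallest p was at chr7:36431001-36434000. Its called window held 0.402 (M3), 1.04 (M5), 0.739 (M11) and 0.437 (M15) RPM in the obese animals and 0.0615 to 0.416 RPM, median 0.188, in the animals without disease. M5, M11 and, narrowly, M15 stood above all healthy animals, and M3 was just below the highest of them. The log2 fold change was 1.47 ± 0.29 (SE), with p = 2.11e-06 and an adjusted p of 1 in edgeR, and without M3 it was 1.58. Without M5 it was 1.19 and p rose to 0.000548.

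Among the 10 higher DHRs of smallest p, each obese animal was above each healthy animal in 4, which the choice by p favours. At chr2:18446001-18449000, the obese animals had 0.904 (M3), 0.743 (M5), 0.739 (M11) and 0.612 (M15) RPM and the healthy animals 0.145 to 0.460, median 0.326 (log2 fold change 1.14 ± 0.24 SE, and 1.07 without M3). At chr14:49789001-49791000, the obese animals had 0.804, 0.832, 0.630 and 1.03 RPM in the same order and the healthy animals 0.205 to 0.60, median 0.38 (1.08 ± 0.23 SE, and 1.09 without M3). At chr7:28752001-28758000, a DHR of 6 kb, they had 0.753, 0.624, 0.486 and 0.612 RPM against 0.190 to 0.343, median 0.253 (1.17 ± 0.26 SE, and 1.09 without M3). These differences were carried by all 4 obese animals. The fourth such DHR was chr16:31389001-31390000, with 0.553, 0.505, 0.721 and 0.647 RPM against 0.174 to 0.478 (log2 fold change 1.16, and 1.19 without M3).

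In other higher DHRs a part of the obese animals carried the difference. At chr16:90270001-90271000, the obese animals had 2.46 (M3), 1.16 (M5), 1.73 (M11) and 1.14 (M15) RPM and the healthy animals 0.546 to 1.49, median 0.778. M3 and M11 were above all healthy animals and M5 and M15 were below M9, the highest of them, and leaving out M3 lowered the log2 fold change from 0.89 to 0.69. At chr6:3412001-3413000, which had the highest read levels among the DHRs named here, the obese animals had 2.51, 1.19, 1.89 and 1.78 RPM against 0.942 to 1.47, median 1.05. There M5 was within the healthy range, and the log2 fold change of 0.70 fell to 0.57 without M3. The remaining higher DHRs of small p, chr10:103474001-103478000 and chr18:36504001-36507000, had log2 fold changes of 1.11 and 1.14 (1.05 and 1.17 without M3). In both, the lowest obese animal was below the highest healthy animal, in the first with 0.468 and 0.512 RPM and in the second narrowly, with 0.553 and 0.555 RPM.

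At the DHRs with less retention, the obese animals had few reads, although the mean over all 13 animals (median 23.1 reads per DHR) was close to that of all windows. At the 10 of smallest p the obese animals alone averaged less than 10 reads, so these windows met the read minimum through the healthy animals. The same held for all other lower DHRs except chr14:5608001, chr4:106343001, chr2:14242001 and chr3:162386001. At chr10:54627001-54628000, the obese animals had 0.201 (M3), 0.178 (M5), 0.108 (M11) and 0.105 (M15) RPM, from 4 to 6 reads each, and the healthy animals 0.254 to 0.597, median 0.465. Each obese animal was below each healthy animal, with a log2 fold change of −1.71 ± 0.35 (SE), and −1.83 without M3. At chr1:163721001-163722000 the obese animals had 0.10, 0.149, 0.180 and 0.105 RPM against 0.266 to 0.651, median 0.444 (−1.67 ± 0.35 SE, and −1.62 without M3), and at chr16:83850001-83851000 they had 0.201, 0.119, 0.180 and 0.157 RPM against 0.333 to 0.651, median 0.479 (−1.51 ± 0.32 SE, and −1.57 without M3). The groups did not overlap in either.

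Some of the lower DHRs had no read in an obese animal, which at the depth of these libraries is a weak statement. M3 had 0 reads at chr7:28875001-28879000 and chr2:252648001-252649000, where 0 reads allow up to 0.151 RPM in its library, and M5 had 0 reads at chr7:6117001-6118000, where 0 reads allow up to 0.0892 RPM. The log2 fold change was −1.75 at chr7:28875001 (−1.55 without M3) and −2.12 at chr7:6117001 (−2.24 without M3). At chr2:252648001-252649000 the other obese animals had 0.178 (M5), 0.198 (M11) and 0.210 (M15) RPM and the healthy animals 0.389 to 0.669, median 0.459. The log2 fold change was −1.47 with M3 and −1.26 without it. Over all lower DHRs, M3 had 0 to 9 reads, with a median of 2, and 10 DHRs had no read in at least 1 obese animal, of which M3 was one in 9.

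The largest fitted difference belonged to chr2:15642001-15645000, chosen here after its values were seen. M3, M5 and M15 had 0 reads in its called window and M11 had 0.0901 RPM from 5 reads, whereas the healthy animals had 0 to 0.669 RPM, median 0.375. Healthy animals M2 and M13, whose libraries were the deepest of the 13, also had 0 reads, and M12 had 2. The log2 fold change of −3.18 ± 0.78 (SE) rested on 11.8 reads per animal on average, near the minimum of 10, and it lay between −7.15 and −2.62 when 1 animal was left out. On the X chromosome, chrX:27255001-27257000 had 0.0502, 0.0297, 0.0360 and 0.0350 RPM in M3, M5, M11 and M15, from 1 or 2 reads each, against 0.0682 to 0.377, median 0.199 (−2.56 ± 0.57 SE, and −2.65 without M3). This window, with 11.4 reads per animal on average, and chr2:15642001 met the minimum of 10 only through the healthy animals. Each was tested in 12 of the 13 fits that left out 1 animal.

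The other lower DHRs of small p were of the same kind. At chr5:164752001-164753000 (log2 fold change −2.04, and −2.23 without M3), M5 and M15 had 1 read each and M3 and M11 were within the healthy range of 0.143 to 0.701 RPM. At chr6:4396001-4397000 (−1.68, and −1.71 without M3), the 4 obese animals lay between 0.105 and 0.178 RPM, and 1 healthy animal was lower still, at 0.0951 RPM. At chr2:33390001-33392000 (−1.53, and −1.69 without M3), the obese animals lay between 0.119 and 0.251 RPM and the healthy animals between 0.287 and 0.751 RPM. Of the 21 DHRs named by the selection rule, 12 had groups that did not overlap. The other 82 DHRs had log2 fold changes of 0.97 to 1.35 where higher (27 DHRs) and −3.18 to −0.91 where lower (55 DHRs), and 56 of them did not overlap. Groups without overlap made up 0.361% of all windows tested, but choosing windows by small p of this contrast favours them, so these counts are a description.

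**Figure D2:**
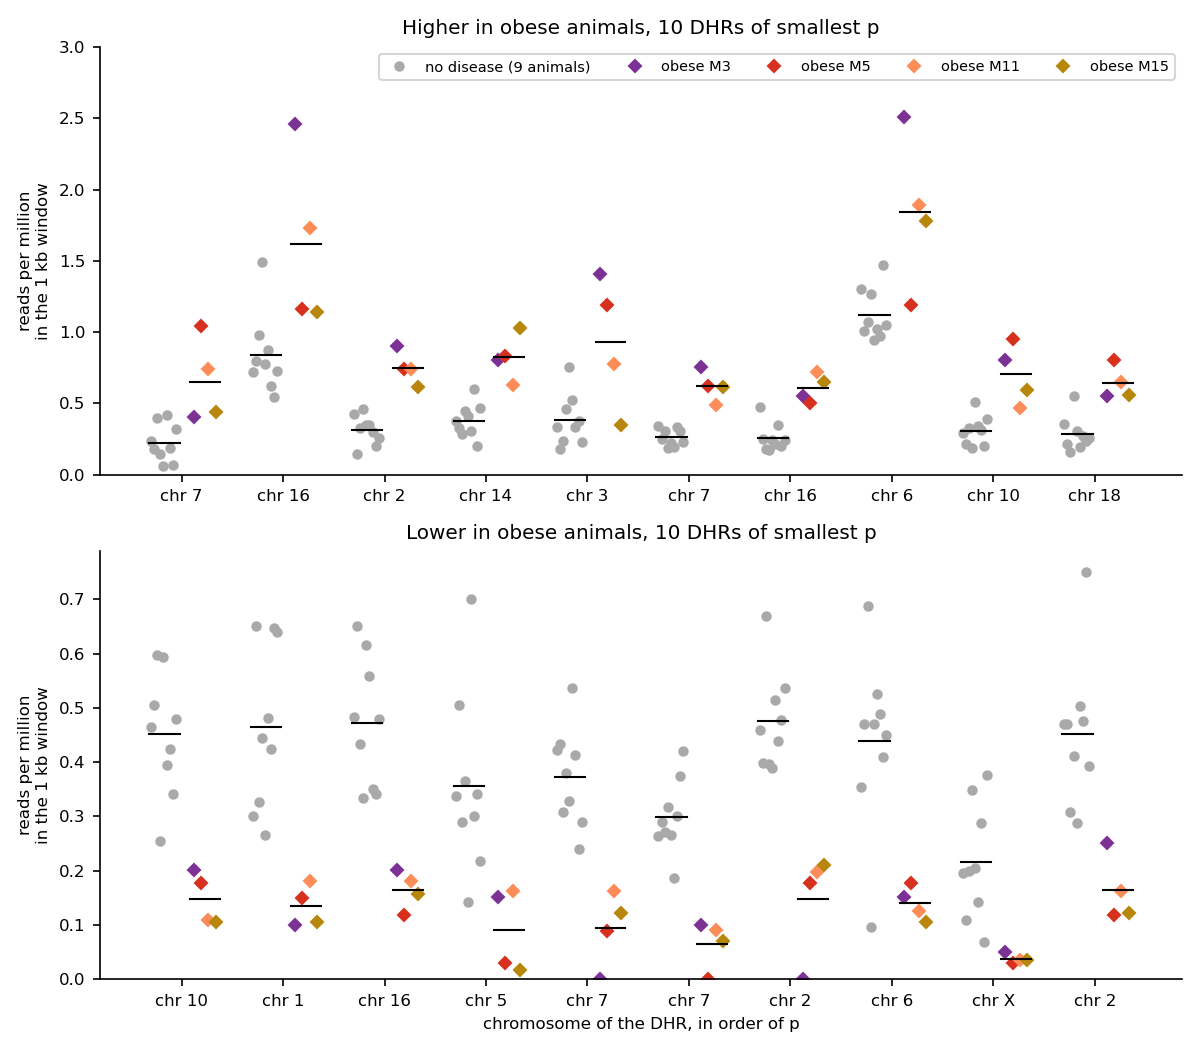
RPM in the called 1 kb window of the 10 DHRs of smallest p in each direction, 1 column per DHR in order of p. Grey points are the 9 animals without disease, coloured diamonds the 4 obese animals, and black lines the group means; at chromosome 16 and chromosome 6 in the upper panel M3 lies highest, with 2.46 and 2.51 RPM.

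Which windows were called changed when single animals were left out, and 1 of 4 obese animals is a larger part of its group than 1 of 9 healthy animals. Without M3 there were 98 DHRs, of which 22.4% were higher, and 35 of the 103 called windows kept p below 0.0001. Without M5 there were 89 DHRs (25.8% higher, 23 windows kept), without M11 149 (23.5%, 31 kept) and without M15 152 (29.6%, 24 kept). Leaving out a healthy animal gave 77 to 120 DHRs, 32.5% to 45.8% of them higher, and kept 62 to 70 of the windows. No DHR kept p below 0.0001 in all 13 of these fits, and 6 did so in at least 12 of them, at chr7:36431001, chr1:163721001, chr2:18446001, chr14:49789001, chr7:28875001 and chr2:252648001. All 103 kept their direction and p below 0.05 in each fit in which their window was tested, and 6 were not tested in at least 1 fit. As the windows were chosen with all 13 animals and each fit reused 12 of them, this was close to fixed beforehand. Of the 21 named DHRs, 14 kept p below 0.0001 without M3. The obese animal farthest from the healthy mean was M3 at 41 DHRs, M5 at 28, M15 at 18 and M11 at 16. Among the 38 higher DHRs it was M3 at 17 and M5 at 13, the animals with the smallest libraries of the obese group, and the part of depth in this was not tested.

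**Figure D3:**
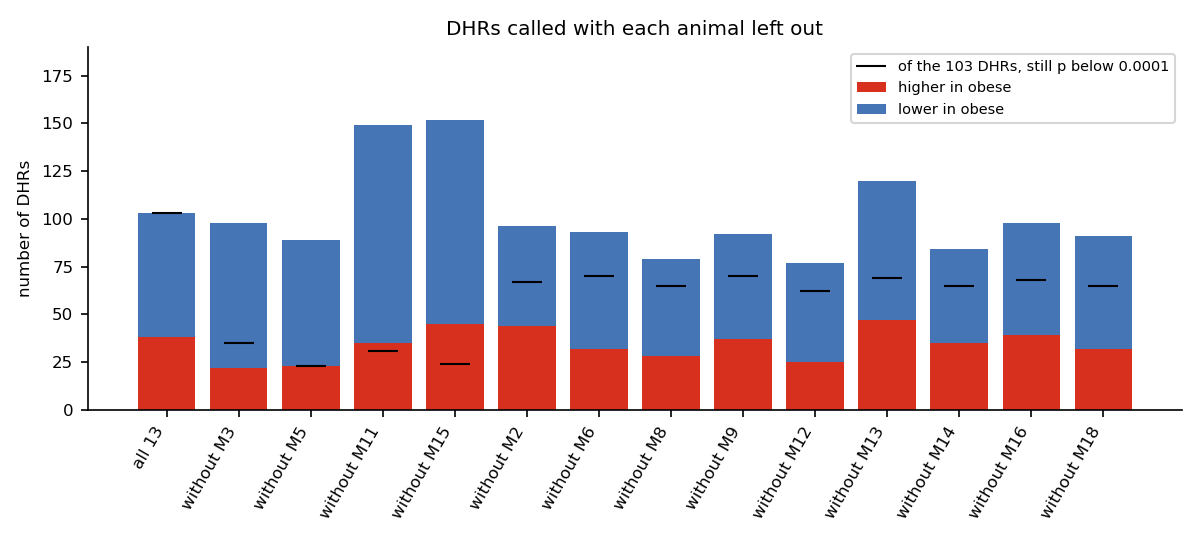
Number of DHRs called with all 13 animals and with each left out in turn, split into those with more reads in obese animals (red) and fewer (blue). Black marks give how many of the 103 windows called with all animals kept p below 0.0001; they lie at 23 to 35 without an obese animal and at 62 to 70 without a healthy one.

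The longest DHR covered 18 kb at chr3:153029001-153047000, and a second of 8 kb, chr3:153060001-153068000, lay 13 kb beyond it. In the called window of the first, the obese animals had 1.41 (M3), 1.19 (M5), 0.775 (M11) and 0.350 (M15) RPM and the healthy animals 0.181 to 0.758, median 0.338 (log2 fold change 1.16 ± 0.26 SE). Over the whole 18 kb, M3 had 0.834, M5 0.887, M11 0.651 and M15 0.429 RPM per window, and the healthy animals had 0.357 to 0.622, median 0.409. M3, M5 and M11 were above all healthy animals and M15 was within their range. Relative to the flanking windows, the stretch held 1.60 to 2.52 times the reads in obese animals and 1.43 to 1.93 times in healthy ones. The flanks were themselves higher in M3 and M5, at 0.378 and 0.351 RPM per window, than in healthy animals (0.243 to 0.334). In M11 and M15 they were within the healthy range, at 0.300 and 0.268. The log2 fold change was 0.94 without M3, and leaving out M5 gave the largest p in edgeR, 0.00144. High levels also occurred outside the obese group, since lean animals M56 and M66 of the atrazine lineage had 0.988 and 0.910 RPM per window here and the highest of the 19 atrazine lineage animals without disease had 0.932. The 8 kb DHR had 0.854, 0.921, 0.450 and 0.350 RPM in M3, M5, M11 and M15 against 0.138 to 0.372, median 0.253 (1.2 ± 0.28 SE, and 1.06 without M3), so that M15 was again at the healthy level.

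There were 2 other pairs of DHRs within 200 kb of each other. On chromosome 16, chr16:90232001 and chr16:90270001 lay 36 kb apart and were both higher in obese animals, with log2 fold changes of 1.03 and 0.89. On chromosome 7, chr7:28752001 and chr7:28875001 lay 117 kb apart and went in opposite directions, with 1.17 and −1.75.

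When the reads were summed over bins of 10 kb, a choice made after the window results were seen, 7 of 274896 bins had p below 0.0001 (0.00255%), and all 7 had more reads in obese animals. A single bin had an adjusted p below 0.05, chr11:17880001-17890000, with a log2 fold change of 3.69 ± 0.48 (SE) and an adjusted p of 0.000743 in edgeR. Its reads came mainly from M5 and M3, and its mean of 21.5 reads per animal passed the minimum of 10 only through the obese animals, since the healthy animals alone averaged less, so such a bin had to differ. M5 had 4.31 RPM (145 reads) and M3 1.86 RPM (37 reads), M11 had 0.306 and M15 0.157, and the healthy animals had 0.0475 to 0.253, median 0.104. Without M3 the adjusted p was 0.020, and without M5 it was 1 with a log2 fold change of 2.30. The number of bins at p below 0.0001 became 4 without M3, 1 without M5, 9 without M11 and 11 without M15, of which 1, 0, 3 and 3 passed adjustment, and no healthy animal was left out here. With 100 kb bins, 0 of 27802 bins had p below 0.0001.

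The high reads of this bin ran over 15 kb, chr11:17880001-17895000, none of whose 15 windows passed the minimum of 10 reads. Here M5 had 202 reads, or 0.40 RPM per window, M3 had 55 (0.184 RPM), M11 25 (0.030 RPM) and M15 19 (0.0222 RPM). The healthy animals had 6 to 34 reads and 0.00634 to 0.0410 RPM per window. Relative to its flanks, the stretch was at 1.22 in M5 and 0.531 in M3, so in M5 it was denser than the windows around it, and at 0.0923 in M11 and 0.0762 in M15. In healthy animals this ratio was 0.0213 to 0.125. It was at most 0.0766 in the 19 atrazine lineage animals without disease, at most 0.133 in the lean animals, and 0.0476 and 0.0614 in obese animals M26 and M44. Reads over this stretch at more than 0.133 of the level of its flanks were thus found in M5 and M3 alone among the 39 animals. Of the other bins, chr11:17890001-17900000 adjoined this one and 2 overlapped the 18 kb DHR of chromosome 3. The adjoining bin, with a mean of 14.6 reads per animal, likewise passed the minimum of 10 only through the obese animals. At chr13:33920001-33930000, M3 and M5 were again the highest, with 4.37 and 4.43 RPM, while M11 had 1.55 and M15 2.73 against 0.181 to 2.01 in healthy animals. The last pair were smaller differences shared by all 4 obese animals. At chr1:157290001-157300000 they had 4.15 to 5.27 RPM against 3.03 to 3.99, and at chr7:67620001-67630000 4.52 to 5.17 against 3.5 to 4.0, without overlap, and both had an adjusted p of 1.

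**Figure D4:**
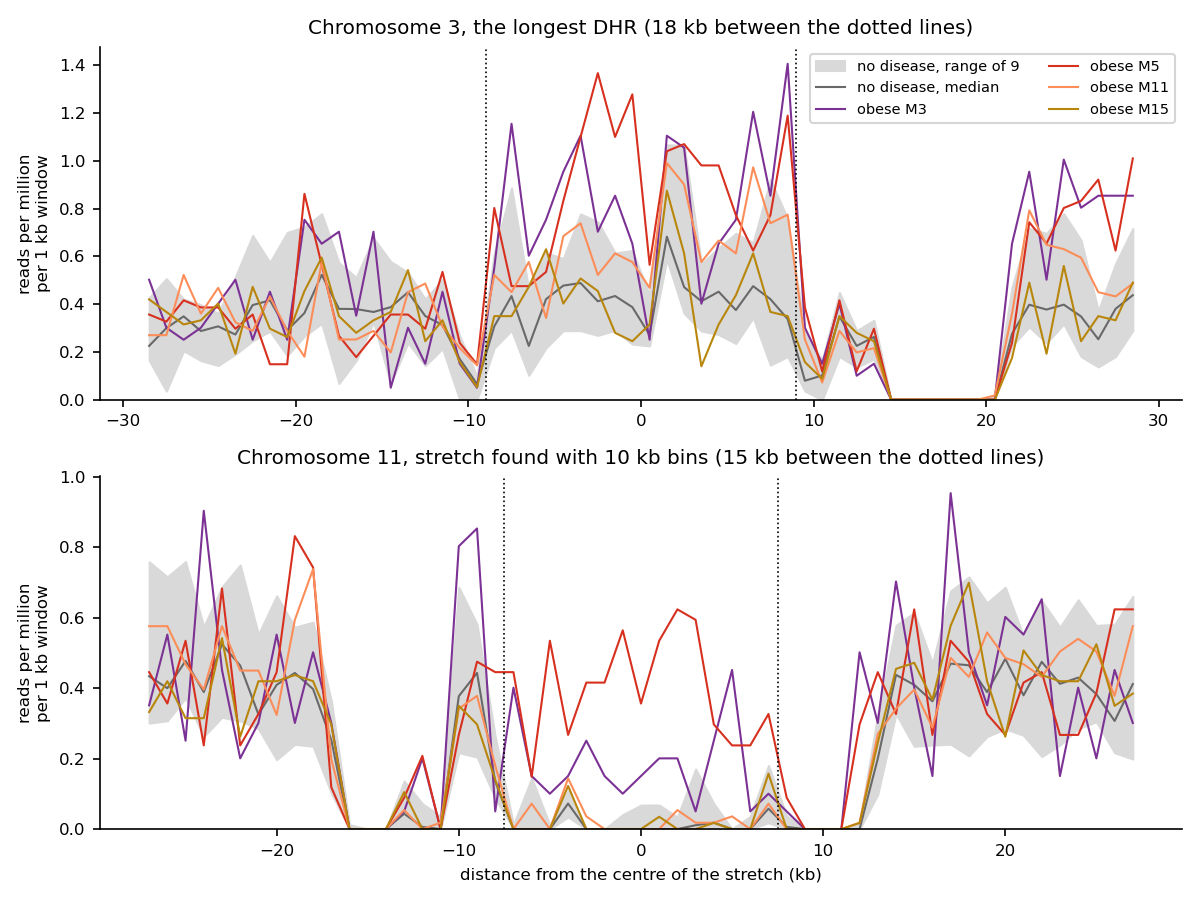
RPM per 1 kb window by distance in kb from the centre of the 18 kb DHR of chromosome 3 (top) and of the 15 kb stretch of chromosome 11 (bottom), with dotted lines at their ends. The grey band is the range and the grey line the median of the 9 animals without disease, and coloured lines are the obese animals; on chromosome 11 M5 and M3 stand above the band, at 0.40 and 0.184 RPM per window on average, while M11 and M15 do not.

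Genes could be assigned only through regions of this build that the study's tables pair with a gene, as no annotation of the build was used. For the distances, regions listed only under placeholder names (such as those that begin with AABR, LOC or RGD) or some small RNAs were left out. No DHR overlapped one of the remaining regions, and 6 DHRs had one within 100 kb. Both DHRs of chromosome 3 were nearest to a region of Dsn1, a subunit of the kinetochore complex that ties chromosomes to the spindle, at 64 and 43 kb. The closest of the 6 was chr12:14135001-14141000, 13 kb from a region of Radil, an effector of the GTPase Rap in cell adhesion. There the obese animals had 0.10 (M3), 0.0892 (M5), 0.0360 (M11) and 0.0875 (M15) RPM, from 2, 3, 2 and 5 reads. The healthy animals had 0.174 to 0.430 RPM, median 0.301 (log2 fold change −1.87 ± 0.46 SE), without overlap. In M3, M5 and M11 the counts were no higher than the 3 reads that a count of 0 allows. This window met the read minimum only through the healthy animals, so the lack of overlap is a weak statement. The remaining 3 were near regions of Adgrg6, an adhesion receptor needed for myelination (55 kb, log2 fold change 1.06), Tmem19 (85 kb, 1.02) and Psmf1, an inhibitor of the proteasome (51 kb, −1.35). These distances are to listed regions, and another gene may lie closer.

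Of 76 genes listed for energy balance, adipocytes and lipids, imprinting and spermatogenesis, 8 could be placed on a window, and 0 of the 8 windows had p below 0.05 in either direction. Over all windows tested the share was 4.18%, so a count of 0 in 8 does not set these genes apart. Among the 3 of 27 energy balance genes placed, Adcy3, an adenylate cyclase of neuronal cilia, had −0.29 ± 0.30 (SE) on the log2 scale, with 0.301, 0.267, 0.360 and 0.245 RPM in M3, M5, M11 and M15 against 0.184 to 0.526, median 0.333. Ntrk2, the receptor of the neurotrophin BDNF, had −0.14 ± 0.31, and Negr1, a neuronal adhesion molecule, 0.07 ± 0.28. Of 21 adipocyte and lipid genes, 3 were placed. Pparg, the nuclear receptor that drives adipocyte formation, had 0.08 ± 0.29, Cebpa, a transcription factor that acts with it, −0.16 ± 0.32, and Adipoq, which encodes adiponectin, 0.06 ± 0.32. Of 14 imprinted genes, Kcnq1, a potassium channel in an imprinted cluster, had −0.11 ± 0.27 and Mest, a paternally expressed gene, −0.18 ± 0.31. At Kcnq1 no obese animal was within the healthy range of 0.361 to 0.470 RPM, since M5, M11 and M15 were below it (0.327, 0.342 and 0.262 RPM) and M3 above it (0.753 RPM). In the other 7 at least 1 obese animal was within the range. The median of the 8 was −0.12 beside 0 for all windows tested. None of the 14 spermatogenesis genes was placed. The genes placed are those the study listed for other comparisons of this series.

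The obese animals of the atrazine lineage, M26 (with testis disease) and M44 (with a tumor), were compared with 17 atrazine lineage animals without disease in a single edgeR fit over 5 groups, those of the control lineage, M26 and M44, 5 lean animals and these 17. M62, M65, M67 and M69 of these 17 and lean animal M66 carry a treatment tag of DMSO against their lineage. At p below 0.0001, 86 windows differed (0.00350%), 8 higher and 78 lower, and at p below 0.05 3.65% did. None had an adjusted p below 0.05. The count was 175 without M26 and 222 without M44, with 0 after adjustment in both, in fits where the lone obese animal was assumed to vary like the animals of the other groups. Higher windows included chr6:72511001-72512000, with 0.803 (M26) and 0.917 (M44) RPM against 0.162 to 0.624 in the 17 animals, and chr1:207195001-207196000, with 0.825 and 0.669 against 0.191 to 0.459. Lower ones included chr11:16881001-16882000, where M26 had no read and M44 0.124 RPM against 0.267 to 0.629, and chr19:2505001-2506000, with 0.148 and 0.0466 RPM against 0.278 to 0.725. At these 4 windows the control lineage obese animals had log2 fold changes of −0.09, −0.18, 0.31 and −0.15.

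The direction of the control lineage DHRs was next read in M26 and M44. At 50 of the 103 DHRs (48.5%) the log2 fold change of M26 and M44 had the same sign, as at 48.6% of all windows tested. The comparisons share no animal, but the windows of a library are not independent of each other, so no p is given. Of the 38 higher DHRs, 16 had the same sign, and of the 65 lower ones, 34. The median change in M26 and M44 was −0.12 at the higher DHRs and −0.03 at the lower. Taken alone, M26 went the same way as the control lineage obese animals at 49 DHRs and M44 at 42. These single counts use log2(RPM + 0.05) in place of the fit, and no share over all windows is given for them. Of the 98 DHRs called without M3, 96 had their window among those tested with all 13 animals, and 50.0% of these had the same sign, and without the animals tagged DMSO the share was 52.4%.

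A change in the same direction with p below 0.05 was found at 2 DHRs, and one in the opposite direction at 0. At chr7:6117001-6118000, M26 had 0.127 and M44 0.0933 RPM against 0.0953 to 0.648, median 0.313, in the 17 animals (log2 fold change −1.49), and the control lineage obese animals had 0.10 (M3), 0 (M5), 0.0901 (M11) and 0.070 (M15) RPM against 0.186 to 0.421, median 0.289 (−2.12). At chr16:90270001-90271000, M26 had 1.44 and M44 1.27 RPM against 0.709 to 1.2, median 0.936 (0.52), beside the log2 fold change of 0.89 in the control lineage. With 3.65% of windows at p below 0.05 in this comparison, 2 of 103 is a share below that of all windows.

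The lean animals of the atrazine lineage, M28, M42, M54, M56 and M66, gave the same sign at 41 of the 103 DHRs (39.8%), against 47% of all windows tested and 41.5% of the windows with p below 0.05 in the obese comparison. The count was 15 of the 38 higher and 26 of the 65 lower DHRs, and 45 of 96 (46.9%) without M3. Lean animals differed from the 17 at p below 0.05 in 12.3% of all windows, which became 6.85% without M28, 7.39% without M42, 14.9% without M54 and 17.6% without M66. After adjustment 0 windows differed with all 5 lean animals, 1703 without M54, 11627 without M66 and 1 without the animals tagged DMSO. With all 5 lean animals and p below 0.05 without adjustment, 5 of the 103 DHRs differed in the same direction and 5 in the opposite. These 10 of 103 are a smaller share than the 12.3% of all windows at that threshold. In the same direction these were chr7:36431001, chr3:153029001 and chr3:153060001 among the higher DHRs, with log2 fold changes of 0.56, 0.56 and 0.75 in lean animals, and chr7:6117001 and chr14:46811001, with −0.90 and −0.61, among the lower. In the opposite direction they were chr14:62766001 among the higher DHRs, with −0.63, and chr12:14135001, chr1:32640001, chr1:245952001 and chr10:81661001 among the lower, with 0.82, 0.62, 0.55 and 0.55. Single lean animals stood out at several of these. M28 had 1.06 RPM at chr12:14135001 and 1.21 at chr1:32640001, where the other lean animals had 0.255 to 0.407 and 0.311 to 0.627, within the ranges of the 17 animals. Without M28 the changes there were 0.33 and 0.24. Leaving out a lean animal also moved the change by over 1.5 times at chr14:62766001 (−0.39 without M42), chr7:36431001 (0.35 without M28), chr7:6117001 (−0.47 without M42, −1.49 without M56), chr3:153029001 (0.28 without M56) and chr3:153060001 (0.39 without M66). Of the 10 DHRs, chr1:245952001 alone kept p below 0.05 without each of the 5 lean animals, with 0.46 to 0.68, and no change turned its sign. Without M42 the share with the same sign was 47.6%, without M28 it was 38.8%, and without the animals tagged DMSO it was 36.9%.

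**Figure D5:**
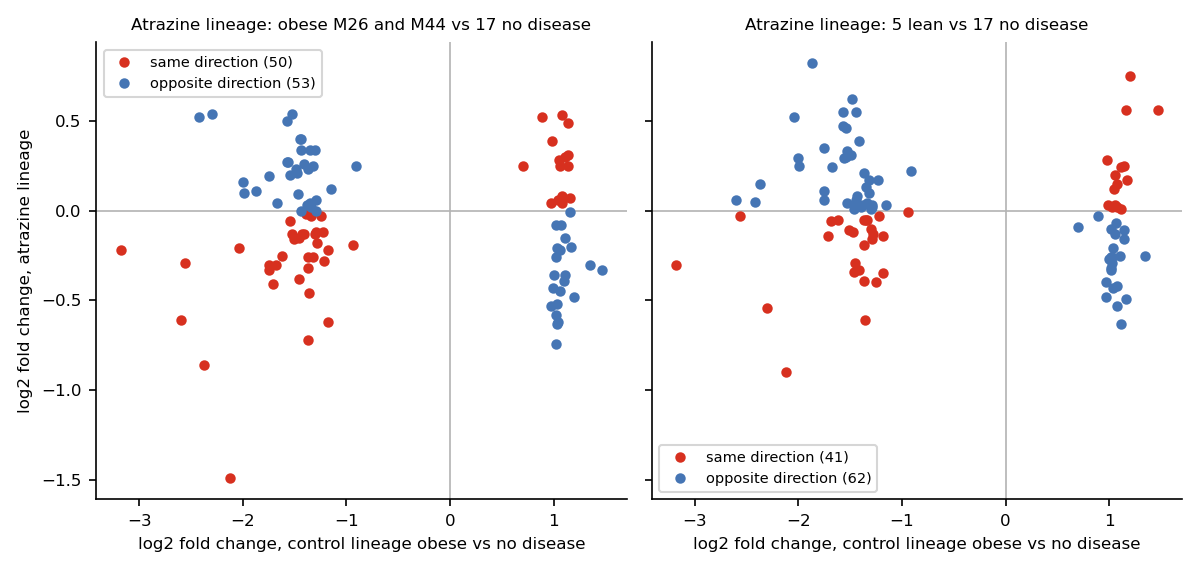
Log2 fold change at the called window of the 103 DHRs in the control lineage (horizontal axis) against that of obese M26 and M44 (left) and of the lean animals (right) over 17 atrazine lineage animals without disease (vertical axis). Red points have the same sign on both axes, 50 on the left and 41 on the right, and blue points do not; no animal belongs to a group on both axes.

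The difference between the lineages was tested directly in the same fit. The obese change differed between the control and the atrazine lineage at 75 windows with p below 0.0001 (0.00305%) and at 3.98% of windows with p below 0.05, and none passed adjustment, with a smallest adjusted p of 1. At chr8:26466001-26467000, M3, M5, M11 and M15 had 0.452, 0.505, 0.486 and 0.542 RPM against 0.160 to 0.38 in their healthy animals, while M26 and M44 had 0.0846 and 0.140 against 0.246 to 0.645. At chr1:78667001-78668000 the order was reversed, with 0.151, 0.208, 0.0901 and 0.122 RPM against 0.238 to 0.548 in the control lineage and 0.994 (M26) and 0.669 (M44) against 0.179 to 0.552 in the atrazine lineage. A like pattern was seen at chr2:248553001-248554000, with log2 fold changes of −1.22 and 0.90, and at chr11:16881001-16882000 the difference came from M26 and M44. Without M3, 59 windows differed, without M26 164, and without M44 178, again with a lone obese animal in these last fits.

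Between the changes of control lineage obese animals and of lean animals, 493 windows differed at p below 0.0001 (0.0200%) and 8.12% at p below 0.05, with a smallest adjusted p of 0.466. At chr5:38445001-38446000, the obese animals had 0.603, 0.505, 0.702 and 0.822 RPM (M3, M5, M11, M15) against 0.153 to 0.634 and the lean animals 0.0378 to 0.198 against 0.180 to 0.617. At chr4:34115001-34116000 the log2 fold changes were 0.65 and −1.47. The windows of the opposite sign were chr1:245952001-245953000, with −1.44 in obese and 0.55 in lean animals, and chr5:138692001-138693000, with −1.18 and 0.84. The first of these is 1 of the 103 DHRs, where the obese animals had 0.151, 0.149, 0.126 and 0.210 RPM and the healthy animals 0.246 to 0.580. Without M3 the 493 windows became 429. The lean animals moved the count further, to 290 without M28, 244 without M42, 1162 without M54 and 1548 without M66, and without M66 1 window had an adjusted p below 0.05. Without the animals tagged DMSO the count was 970, and 1 window had an adjusted p below 0.05.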

How the data were processed

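Sperm chromatin of each animal was precipitated with a histone H3 antibody and sequenced as paired ends. The authors trimmed reads with Trimmomatic, mapped them to the rat build Rnor_6.0 with Bowtie2 and counted them in windows of 1000 bp. Their methods describe pools, but the table has a column per animal. The deposited counts are raw and were used in 39 animals, while 93 other columns of the table that belong to single libraries were not used. Columns with RPKM or with results of the authors' own tests were not used. Windows were tested when the 13 control lineage animals averaged 10 reads or more, in R 4.3.3 with edgeR 4.0.16 (glmQLFit and glmQLFTest, TMM, dispersion trend from a random sample of 200000 windows, Benjamini-Hochberg over all windows tested). Windows with p below 0.0001 were extended over those with p below 0.1 within 1000 bp. Fits that left out 1 animal reused the TMM factors of all animals, and the fits over 5 groups shared 1 set of factors. The fit without M2 and M12 together computed its own factors. M59 and M68, labelled without disease but not among the 17 of the authors' lean comparison, entered only as an alternative. RPM values use the total count and no TMM factor, and the direction of single atrazine lineage animals uses log2(RPM + 0.05). Alternatives used DESeq2 1.42.0, its size factors, other filters, robust empirical Bayes, edgeR's exact test and wider bins. The named regions are the 10 DHRs of smallest p in each direction and the 3 longest (3 tied at 6 kb for the last place, and the smallest p was taken), and in each further comparison the 2 windows of smallest p in each direction. Animals, lists and rules were chosen with earlier results of these data known. A count of 0 allows up to 3 reads. Total counts were 19909382 to 163344139 per animal, and a window near 10 reads has a large counting error.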

Additional observations from a re-analysis of the deposited data

Results flagged for a closer look

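Of 92 groups of values examined (the 25 library measures and the 21 named DHRs, each in obese and in healthy animals), 5 had 1 animal apart from the rest by Dixon's criterion at the 95% level, where chance gives about 1 in 20. M2 had the deepest library of the healthy animals, with 163344139 reads before 91305996 in the next. At chr16:90270001-90271000, healthy animal M9 had 1.49 RPM and the next 0.977. M9 was also the highest healthy animal at chr18:36504001-36507000, with 0.555 RPM before 0.355. At chr2:33390001-33392000, healthy animal M16 had 0.751 RPM and the next 0.504. At chr2:252648001-252649000, obese animal M3 had 0 RPM, which allows up to 0.151, and the next obese animal 0.178. The part of depth in these values was not tested.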

How the results depend on the processing

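No paired analysis was possible because no animal belongs to both groups. With all 13 animals, 103 windows, 103 DHRs and 36.9% higher DHRs were found, and 0 windows after adjustment. In the fit over 5 groups the same contrast gave 55 windows at p below 0.0001, 15 higher and 40 lower, and 0 after adjustment. Leaving out each animal in turn gave 77 to 154 windows, 77 to 152 DHRs and 22.4% to 45.8% higher. The share was 22.4% without M3 and 50.5% with DESeq2. DESeq2 called 95 DHRs, and 78 of the 103 windows kept p below 0.0001. With edgeR's exact test and tagwise dispersion there were 472 windows and 470 DHRs, still with 0 after adjustment. With every window of at least 1 read in all, 9 windows passed adjustment, 7 of them in the chromosome 11 stretch. Their mean over the animals was at most 2.23 reads, most of them from M5, M3 or M15, and the 9 healthy animals together had 0 to 3, so that these windows were covered mainly through the obese animals. In 10 kb bins, added after seeing the data, 7 bins had p below 0.0001 and 1 passed adjustment, on a read minimum met only through the obese animals. In 100 kb bins 0 had p below 0.0001. Leaving out M2 and M12 together gave 82 DHRs. For M26 and M44, 86 windows became 175 without M26 and 222 without M44. The difference between obese and lean changes went from 493 to 290 windows without M28, 244 without M42, 1162 without M54, 1548 without M66 and 970 without the animals tagged DMSO. The cause of these shifts was not tested. The 103 DHRs kept their sign in the control lineage under each alternative that tested their window, which their choice in the same animals favours. Of the 21 named DHRs, 7 lost p below 0.0001 without M3, 11 without M5, 9 without M11 and 15 without M15. The share of DHRs with the same sign was 41.7% to 52.4% in M26 and M44 and 36.9% to 47.6% in lean animals over the alternatives. The whole gene body in place of gene windows was not run, since no annotation of the build was used. Windows near 10 reads per animal and a group of 4 limit the precision, and the smallest detectable change was not computed.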
